A study of Mus musculus with 2 samples.

Results

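The monocyte attractants Ccl2, Ccl7, Ccl8 and Ccl12 and the receptor Ccr2 were followed through mouse prostate tumour tissue and normal tissue adjacent to tumour. The 5 genes were taken by symbol and carry the identifiers ENSMUSG00000035385, ENSMUSG00000035373, ENSMUSG00000009185, ENSMUSG00000035352 and ENSMUSG00000049103. They are 5 of the 32285 genes in each deposited matrix. The data are droplet single-cell RNA counts, in which each captured RNA molecule is counted once as a unique molecular identifier (UMI), from 1 library of tumour and 1 library of normal adjacent tissue. Both tissues were digested with collagenase and trypsin, and CD45+ and CD45- fractions from a flow sort went into the same channel, so the mix of cells follows the sort as well as the tissue. The labels give no strain, genotype, tumour model, age or number of mice for either group.

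Ccl2, Ccl7, Ccl8 and Ccl12 encode the monocyte chemoattractant proteins MCP-1, MCP-3, MCP-2 and MCP-5, small secreted chemokines whose genes lie together in one cluster of the mouse genome. Ccr2, a G protein coupled receptor, is bound by the Ccl2, Ccl7 and Ccl12 proteins and is needed for inflammatory monocytes to leave the bone marrow and enter tissue. The mouse Ccl8 protein is known mainly as a ligand of the receptor Ccr8. In tumours the Ccl2 and Ccr2 pair is known for bringing in monocytes that become tumour macrophages, and Ccr2 is also carried by dendritic cells and by subsets of T and NK cells.

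The tumour library held 8237 cell barcodes and 92188538 UMIs, and the normal adjacent library held 6553 barcodes and 77855775 UMIs, with medians of 6015 and 6017 UMIs per barcode. After filtering, 7768 tumour and 6209 normal adjacent cells were kept, and 18 barcodes occurred in both libraries. Cells were sorted into 20 gates from summed UMIs of marker genes, none of them a member, which placed 4907 tumour cells (63.2%) and 3953 normal adjacent cells (63.7%). A further 2063 tumour cells (26.6%) and 1408 normal adjacent cells (22.7%) carried markers of more than 1 lineage and are called mixed. The levels of the markers follow from the gating, so 2 genes that set no gate were read as a check. Csf1r, the growth factor receptor of macrophages and monocytes, stood at 628 CPM (UMIs per 1000000 UMIs of the gate) in tumour and 601 CPM in normal adjacent macrophages, and at 273 and 254 CPM in monocytes. B cells had 26.9 and 5.79 CPM of it. Ptprc, which encodes CD45, stood at 33.7 and 32.7 CPM in fibroblasts, against 514 and 520 CPM in macrophages. All intervals below are 95% intervals that cover counting error only. With 1 library per tissue they compare these libraries and not the conditions, and no test between tissues was possible.

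Over all kept cells, Ccl2, Ccl7, Ccl8 and Ccl12 had a higher level in the tumour library and Ccr2 had nearly the same level in both. The macrophage gate held 10.1% of all UMIs of kept cells in tumour and 6.81% in normal adjacent tissue. The part of the cell mix in these library levels was not tested. Ccl2 had 26155 UMIs in tumour and 19012 in normal adjacent tissue, or 287 and 247 CPM, a ratio of 1.16 (1.14 to 1.19). Ccl7 had 20754 and 15026 UMIs, or 228 and 195 CPM, with a ratio of 1.17 (1.14 to 1.19). Ccl12 differed most, with 20400 UMIs (224 CPM) in tumour and 10788 UMIs (140 CPM) in normal adjacent tissue, a ratio of 1.60 (1.56 to 1.64). Ccl8 had the fewest UMIs, with 2186 UMIs in tumour and 1483 in normal adjacent tissue, a ratio of 1.25 (1.17 to 1.33). Ccr2 had 10354 and 8674 UMIs, or 114 and 113 CPM, a ratio of 1.01 (0.981 to 1.04). A UMI of Ccr2 was found in 33.1% of tumour and 33.2% of normal adjacent cells.

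The 4 ligands had different sources. Ccl2 and Ccl7 had high levels in macrophages, fibroblasts and a handful of mast or basophil cells. In tumour those mast or basophil cells held only 1.59% of gated Ccl2 UMIs and 4.71% of gated Ccl7 UMIs. Ccl12 was held by macrophages and was close to absent from fibroblasts. Ccl8 was sparse everywhere and lay in few cells.

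**Figure D1:**
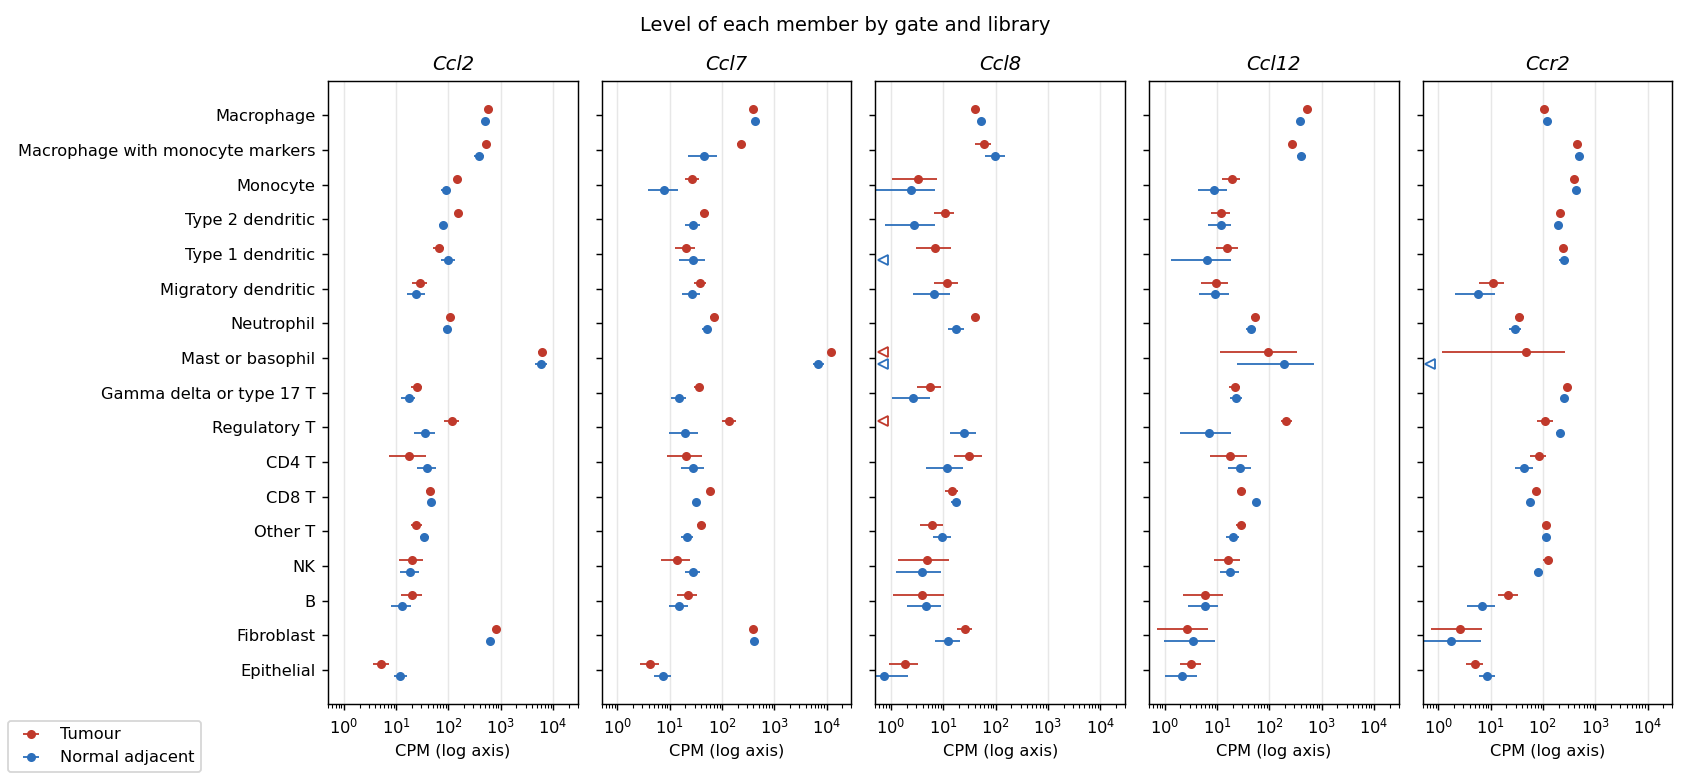
Level of each of the 5 genes in CPM (log axis) in 17 gates, with tumour in red above normal adjacent in blue; bars are exact 95% Poisson intervals and open triangles mark a count of 0. Ccl2 and Ccl7 stand out in the macrophage, fibroblast and mast or basophil gates, and Ccl12 in the macrophage gates. Ccr2 stands out in macrophages with monocyte markers, monocytes, gamma delta T cells, and type 1 and type 2 but not migratory dendritic cells.

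Ccl2, the best known of the attractants, reached 802 CPM (757 to 848) in tumour fibroblasts, against 622 CPM (577 to 670) in normal adjacent fibroblasts. In the macrophage gate it reached 574 CPM (559 to 590) in tumour and 492 CPM (474 to 512) in normal adjacent tissue. Fibroblasts and macrophages were therefore the highest gates with at least 50 cells in both libraries, in that order in both, and their intervals did not overlap within either library. Type 2 dendritic cells had 154 CPM in tumour and 79.7 CPM in normal adjacent tissue, monocytes 147 and 89.2 CPM and neutrophils 106 and 92.8 CPM. In normal adjacent tissue the intervals of neutrophils and monocytes overlapped. B cells, which are not known as a source, held 19.9 and 12.7 CPM, and epithelial cells held 5.25 and 12 CPM. A UMI of Ccl2 was found in 59.5% of tumour and 45.4% of normal adjacent macrophages, at median depths of 9011 and 6828 UMIs. In B cells the shares were 10.5% and 6.2% at median depths of 4183 and 4644 UMIs. With every cell thinned to 1000 UMIs, the macrophage shares were 27.8% and 21.9% and the B cell shares 2.4% and 0.3%. The thinned fibroblast shares were 26.7% and 24.5%, so by share of cells fibroblasts did not stand above macrophages in tumour. One tumour fibroblast held 150 Ccl2 UMIs, 12.4% of the gate.

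Ccl7 resembled Ccl2 in where it lay. It stood at 384 CPM in tumour and 428 CPM in normal adjacent macrophages, and at 398 and 416 CPM in fibroblasts. Monocytes had little of it, 26.8 CPM in tumour and 7.89 CPM in normal adjacent tissue, from 41 and 10 UMIs. Neutrophils held 68.9 and 50.7 CPM, against 21.9 and 15.1 CPM in B cells. After thinning, 16.1% of tumour and 15.9% of normal adjacent macrophages had a UMI of Ccl7, and 15.0% and 18.6% of fibroblasts did. Across 26 gate and library profiles the log2 level of Ccl7 followed that of Ccl2 with a Pearson r of 0.870, a description over profiles that share libraries and gates.

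The highest CPM of both genes lay in the smallest sources. The mast or basophil gate, set by the mast cell proteases Cpa3 and Cma1 and related genes, held 11 tumour and 4 normal adjacent cells. All 11 and all 4 cells had UMIs of Cpa3 and of Cma1. Ccl2 stood at 6239 CPM in the tumour cells and 6041 CPM in the normal adjacent cells, from 133 and 62 UMIs. Ccl7 stood at 12196 CPM in tumour and 7015 CPM in normal adjacent tissue, from 260 and 72 UMIs. The Ccl7 level rested on few cells, since 1 tumour cell held 149 of the 260 UMIs and 1 normal adjacent cell held all 72. Ccl2 was spread wider, with UMIs in 10 of the 11 tumour cells and 3 of the 4 normal adjacent cells. The macrophage gene C1qa was at 0 in the tumour cells of the gate, a count that allows up to 141 CPM at a floor of 3 counts, and the C1q genes together had 3 UMIs. Mixed cells that carried mast markers, 9 in tumour and 6 in normal adjacent tissue, had 1418 and 2770 CPM of Ccl2 and 1983 and 3574 CPM of Ccl7. The smooth muscle or pericyte gate, also small, had 1 Ccl2 UMI from 8 tumour cells and 37 from 6 normal adjacent cells, of which 1 cell held 27.

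Ccl12 followed macrophages more closely than any other member. Its level was 524 CPM (510 to 539) in tumour macrophages and 389 CPM (372 to 406) in normal adjacent macrophages. In fibroblasts only 4 UMIs were counted in each library, or 2.64 and 3.54 CPM, although the same cells were rich in Ccl2. Monocytes had 19.0 and 8.68 CPM, B cells 5.98 and 5.79 CPM and epithelial cells 3.22 and 2.17 CPM. The 5 genes most like Ccl12 over the 26 profiles, out of 12577 genes compared, were C1qa (r = 0.956), Ms4a7 (r = 0.954), C1qc (r = 0.949), C1qb (r = 0.943) and Lilra5 (r = 0.898). C1qa, C1qb and C1qc are macrophage markers and so had set the gates. A UMI of Ccl12 was found in 51.5% of tumour and 37.7% of normal adjacent macrophages, and in 24.2% and 16.9% after thinning.

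Ccl8 stood at 39.7 CPM (35.7 to 43.9) in tumour macrophages and 53.5 CPM (47.4 to 60.1) in normal adjacent macrophages. Neutrophils held 40.9 CPM in tumour and 17.8 CPM in normal adjacent tissue, and fibroblasts 25.8 and 12.4 CPM from 39 and 14 UMIs. B cells held 3.99 and 4.63 CPM. Only 9.17% of tumour and 11.4% of normal adjacent macrophages had a UMI of Ccl8. The gene most like it over the profiles was Tnfsf13b, at r = 0.804, a weaker likeness than the best of any other member.

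Ccl8 and Ccl12 are neighbours on chromosome 11, and were the ligands matched to an entry in the promoter table. Their promoters are shown side by side as those of neighbouring ligand genes. The 250 bases before each start are given 5′ to 3′ from RefSeq, assembly GRCm38.p6, both on the plus strand, at chr11:82114935-82115184 for Ccl8 and chr11:82101595-82101844 for Ccl12. Capitals mark runs of at least 8 bases that a search found in both.
Ccl8: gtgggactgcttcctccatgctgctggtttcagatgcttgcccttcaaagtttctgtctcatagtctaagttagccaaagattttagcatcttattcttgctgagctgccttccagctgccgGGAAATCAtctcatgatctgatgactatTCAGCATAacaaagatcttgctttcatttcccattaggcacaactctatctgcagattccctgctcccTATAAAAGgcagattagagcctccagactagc
Ccl12: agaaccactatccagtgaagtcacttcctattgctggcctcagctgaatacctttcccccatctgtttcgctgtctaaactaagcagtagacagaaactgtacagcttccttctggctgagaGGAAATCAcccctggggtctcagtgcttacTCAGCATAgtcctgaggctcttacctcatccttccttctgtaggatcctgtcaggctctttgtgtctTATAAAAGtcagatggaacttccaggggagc
The runs GGAAATCA, TCAGCATA and TATAAAAG stood in the same order in both. On either strand they occurred in 323 (0.983%), 158 (0.481%) and 496 (1.51%) of the 32851 promoters of the table. The letters TATAAAA, the core of the TATA box, were in both promoters and in 4.98% of all, and overlap the last run. The PU.1 core GAGGAA, read on both strands, was also in both, and in 23.3% of all. The AP-1 pattern TGANTCA was in neither window, and in 6.75% of all. Patterns of NF-kB sites and of the interferon-stimulated response element, in 45.8% and 2.98% of all promoters, were also in neither.

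Most ligand UMIs lay in mixed cells, so the gates describe a minority of each library's ligand RNA. Mixed cells held 65.8% of Ccl2 UMIs in tumour and 74.7% in normal adjacent tissue, 72.0% and 76.4% of Ccl7, 62.0% and 63.1% of Ccl8 and 71.6% and 73.7% of Ccl12. They also held 49.9% and 49.8% of all UMIs, at median depths of 16823 and 21128 UMIs per cell. Macrophage markers were carried by 77.7% of mixed cells in tumour and 79.0% in normal adjacent tissue. Mixed cells with macrophage markers had 377 and 233 CPM of Ccl12, against 40.2 and 22.0 CPM in mixed cells with neither macrophage nor dendritic markers. All cells at the macrophage marker level, gated or mixed, made up 31.6% of tumour and 27.6% of normal adjacent cells. They held 94.9% and 92.6% of Ccl12 UMIs, 84.9% and 87.3% of Ccl7, 81.2% and 84.1% of Ccl2 and 74.1% and 78.7% of Ccl8. Of Ccr2 they held 56.2% and 56.6%. Their share of all UMIs exceeded their share of cells, since many were deep mixed cells. Per UMI they had 404 and 255 CPM of Ccl12, against 224 and 140 CPM over all kept cells. For Ccl2 the levels were 444 and 409 CPM, against 287 and 247 CPM. For Ccr2 they were 121 and 125 CPM, against 114 and 113 CPM. The part of doublets and of free RNA in the mixed cells was not tested.

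**Figure D2:**
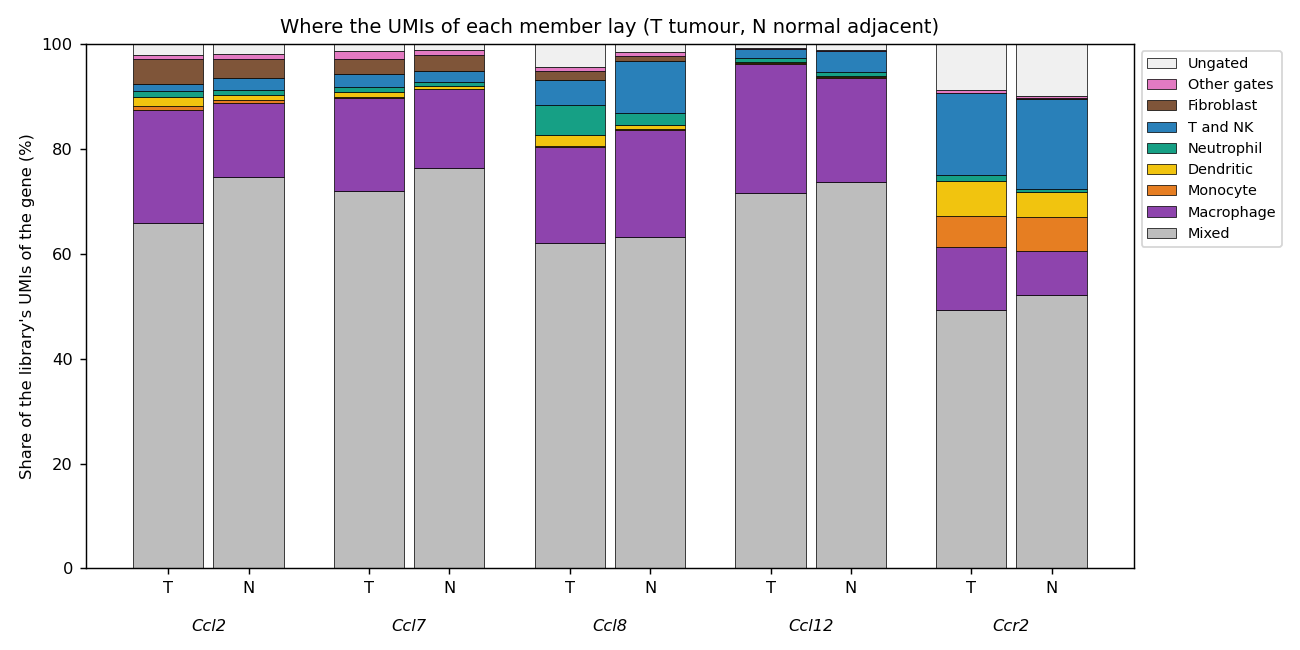
Share of each library's UMIs of each gene (%, stacked bars) by group of gates, with tumour (T) left of normal adjacent (N); the macrophage colour joins the macrophage gate and the gate of macrophages with monocyte markers. Mixed cells hold 62.0% to 76.4% of each ligand and 49.2% and 52.1% of Ccr2.

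Among gated cells alone, the macrophage gate held 63.5% of Ccl2 UMIs in tumour and 57.9% in normal adjacent tissue, and 86.1% and 75.0% of Ccl12. For Ccl7 it held 64.4% and 66.7%, and for Ccl8 50.0% and 53.7%. Fibroblasts held 14.5% and 15.8% of gated Ccl2, 10.9% and 14.0% of Ccl7 and 0.071% and 0.147% of Ccl12. Macrophages with and without monocyte markers and fibroblasts were together 21.8% of gated tumour cells and 18.0% of gated normal adjacent cells. They held 81.7% and 75.8% of gated Ccl2, 77.7% and 81.0% of Ccl7 and 89.0% and 78.8% of Ccl12. Neutrophils held 16.8% of gated Ccl8 in tumour and 6.31% in normal adjacent tissue. They were 23.3% of gated tumour cells and 600 of the 3953 gated normal adjacent cells. T and NK cells held 14.4% and 27.9% of gated Ccl8, with 34.0% and 44.3% of gated cells.

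Low ligand levels in other gates were set beside the C1q genes, which mark macrophage RNA. In the macrophage gate there were 40.7 Ccl2 UMIs per 1000 C1q UMIs in tumour and 34.0 in normal adjacent tissue. The fibroblast gate had 7442 and 4632, the monocyte gate 460 and 441 and the type 2 dendritic gate 382 and 201. Gamma delta or type 17 T cells had 74.7 and 52.8, and B cells 82.0 and 60.1. All these gates stood above the ratio of the macrophage gate, fibroblasts by the widest margin. The C1q genes had themselves set the macrophage gate, and cells of other lineages at its marker level were called mixed. The gating thus limits C1q elsewhere, and its part in the higher ratios there was not tested. These ratios alone cannot tell a gate's own ligand RNA from macrophage RNA. For Ccl12 the macrophage gate had 37.2 and 26.9 per 1000, the monocyte gate 59.6 and 43.0, the neutrophil gate 78.4 and 82.9 and the B cell gate 24.6 and 27.3. The part of free RNA in the low levels was not tested.

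Within the macrophage gate, few cells held most of the ligand RNA. For Ccl2, 50% of the UMIs lay in 51 of 818 tumour macrophages (6.23%) and in 26 of 579 normal adjacent macrophages (4.49%). For Ccl7 they lay in 31 and 14 cells, or 3.79% and 2.42%, and for Ccl12 in 37 and 16 cells, or 4.52% and 2.76%. Ccl8 was the extreme case, with 4 tumour cells and 5 normal adjacent cells holding 50%, and 1 tumour cell holding 130 of the 367 UMIs. The mean macrophage had 6.49 Ccl2 UMIs in tumour and 4.47 in normal adjacent tissue, and 5.93 and 3.53 Ccl12 UMIs. No ligand UMI was found in 21.6% of tumour and 31.4% of normal adjacent macrophages, UMIs of 3 ligands in 21.3% and 15.2%, and UMIs of all 4 in 2.81% and 2.59%. These means and shares are not matched for depth, and the median macrophage had 9011 UMIs in tumour and 6828 in normal adjacent tissue. Per UMI the libraries lay closer, at 574 and 492 CPM of Ccl2 and 524 and 389 CPM of Ccl12.

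**Figure D3:**
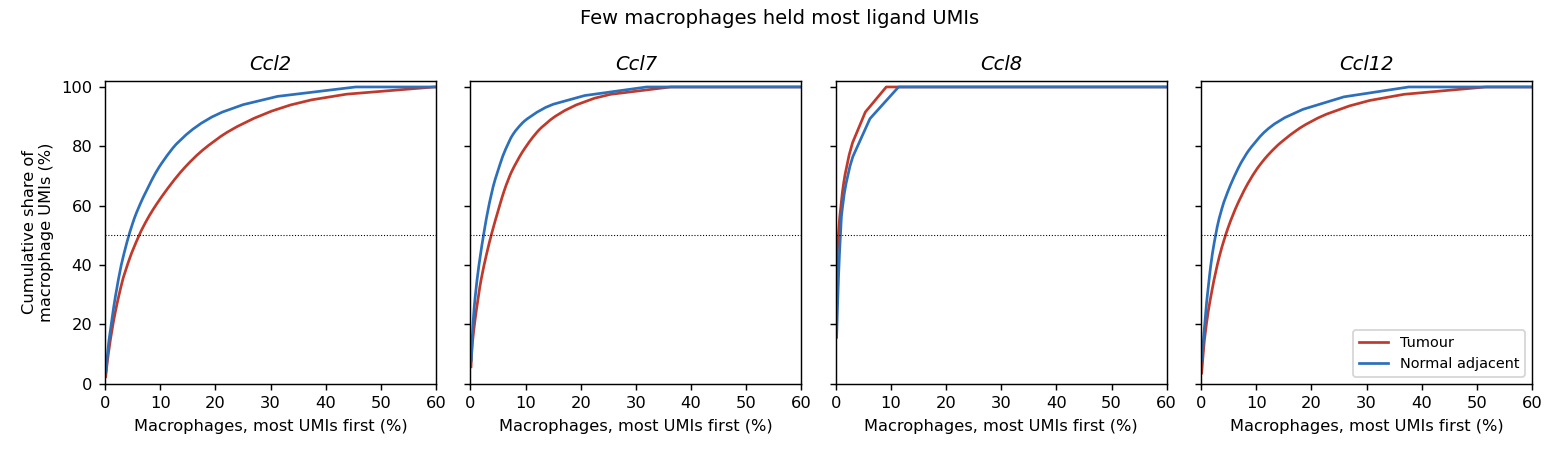
Cumulative share of the macrophage gate's UMIs of each ligand (%) against macrophages ranked by their UMIs of that ligand (%), tumour in red and normal adjacent in blue; the dotted line marks 50%. The curves reach 50% within 6.23% of macrophages for Ccl2 and within fewer for the other ligands.

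Ccl2 and Ccl7 tended to lie in the same cells. At 1000 UMIs per cell, Ccl7 was found in 32.4% of tumour macrophages with Ccl2 and 9.85% of those without it. In normal adjacent macrophages the shares were 31.5% and 11.6%. In fibroblasts Ccl7 was found in 39.6% of tumour cells with Ccl2 and 6.06% of those without, and in 48.0% and 9.09% of normal adjacent cells. Ccl12 was found in 33.3% of tumour macrophages with Ccl2 and 20.6% of those without, and in 29.7% and 13.4% of normal adjacent macrophages. Ccl8 was found in 1 of 207 tumour macrophages with Ccl2 (0.483%) and 3.35% of those without, and in 3.6% and 4.79% of normal adjacent macrophages. In neutrophils it was found in 10.4% of tumour cells with Ccl2 and 2.99% of those without, and in 2.63% and 1.70% of normal adjacent cells. These shares pool cells of 1 library and are descriptions.

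Ccl8 also differed from the other ligands in the depth of the cells that held it. In macrophages under 2000 UMIs it stood at 215 CPM in tumour and 383 CPM in normal adjacent tissue, carried by 9 of 136 and 14 of 160 cells. In macrophages of 2000 to 10000 UMIs it stood at 95.7 and 101 CPM, and in those of at least 10000 UMIs at 20.8 and 24.9 CPM. In the middle class 1 tumour cell held 130 of 188 UMIs. Without the cell with most Ccl8 in each class, the levels were 101 and 263, 29.6 and 62.1, and 19.2 and 17.1 CPM, an alternative added after the values were seen. Ccl12 showed no such order, with 337 and 233, 669 and 462, and 488 and 376 CPM in the same 3 depth classes. C1qa ran from 3963 to 6367 CPM over the same classes in both libraries. The depth classes were chosen after the values were seen.

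Ccr2, the receptor, was highest in cells with monocyte markers. Macrophages that also carried monocyte markers, 35 in tumour and 23 in normal adjacent tissue, had 453 CPM (400 to 511) and 488 CPM (404 to 585). Monocytes, defined by Ly6c2, Plac8 and related genes, had 397 CPM (366 to 430) in tumour and 437 CPM (402 to 475) in normal adjacent tissue. The intervals of these 2 gates overlapped within each library. A UMI of Ccr2 was found in 72.8% of tumour and 70.7% of normal adjacent monocytes, at median depths of 9161 and 10470 UMIs. After thinning the shares were 29.6% and 32.8%.

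Gamma delta or type 17 T cells came next in tumour, with 286 CPM (267 to 306), and had 250 CPM (232 to 270) in normal adjacent tissue. Type 1 dendritic cells, which take up and present antigen to CD8 T cells, had 240 CPM (212 to 270) in tumour and 249 CPM (206 to 299) in normal adjacent tissue. Type 2 dendritic cells had 208 and 197 CPM. The intervals of gamma delta T cells and type 1 dendritic cells overlapped in both libraries, as did those of the 2 dendritic gates. Migratory dendritic cells, the Ccr7-bearing form, had only 10.9 and 5.61 CPM, from 15 and 6 UMIs.

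Among the other lymphocytes, Ccr2 stood at 125 CPM in tumour and 81.8 CPM in normal adjacent NK cells, and at 113 and 116 CPM in T cells outside the named subsets. CD4 T cells had 82.3 and 44.3 CPM and CD8 T cells 74.2 and 56.2 CPM. Regulatory T cells had 111 CPM from 27 tumour cells and 213 CPM from 49 normal adjacent cells. B cells had 21.9 and 6.95 CPM, from 22 and 12 UMIs, and a UMI was found in 5.3% and 2.9% of them. At 1000 UMIs per cell the B cell shares were 1.2% and 1.4%, against 24.9% and 20.1% in gamma delta T cells. Fibroblasts had 4 and 2 UMIs of Ccr2, and epithelial cells had 5.08 and 8.67 CPM.

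Within gates, Ccr2 was also read by a marker of a subset. In the gamma delta or type 17 T gate, cells with a UMI of Trdc, the gamma delta receptor constant gene, had 306 CPM in tumour and 258 CPM in normal adjacent tissue. Cells of that gate without one had 223 and 230 CPM, and the intervals overlapped in normal adjacent tissue. NK cells with a UMI of Eomes, a transcription factor of mature NK cells, had 165 and 99.9 CPM, against 44.7 and 56.1 CPM in NK cells without one. The intervals of these NK classes also overlapped in normal adjacent tissue.

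By number of molecules, lymphocytes and macrophages held more gated Ccr2 than monocytes did. T, NK and B cells held 37.7% of gated Ccr2 UMIs in tumour with 37.5% of gated cells, and 45.7% in normal adjacent tissue with 52.1% of gated cells. Macrophages held 22.8% and 18.7%, gamma delta or type 17 T cells alone 19.4% and 20.1%, and monocytes 14.0% and 16.8%. The 3 dendritic gates held 16.1% of gated Ccr2 in tumour and 12.4% in normal adjacent tissue. They made up 7.21% and 5.69% of gated cells. Mixed cells held 49.2% and 52.1% of all Ccr2 UMIs of each library, and cells with no gate 8.79% and 9.82%.

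Macrophages joined the ligands and the receptor, and were therefore ordered by their own level of monocyte markers. Ccr2 climbed through all 4 classes in both libraries. It stood at 65.9 CPM in tumour and 78.5 CPM in normal adjacent macrophages with under 1 monocyte marker UMI per 10000, and at 130 and 127 CPM from 1 to 4. From 4 to 16 it stood at 179 and 228 CPM, and from 16 on at 451 and 480 CPM. The class from 16 on contains the 35 tumour and 23 normal adjacent macrophages with monocyte markers described above. Ccl7 was lowest in that class, which has most monocyte markers, at 231 CPM in tumour and 61.1 CPM in normal adjacent tissue. These levels came from 134 and 15 UMIs in 38 and 29 cells, at median depths of 13062 and 1746 UMIs. In the class with fewest monocyte markers Ccl7 stood at 395 and 436 CPM. Ccl12 peaked in the class from 4 to 16, at 704 and 562 CPM, and Ccl2 in tumour stayed between 537 and 610 CPM in all 4 classes. In normal adjacent tissue Ccl2 stood at 494, 568, 351 and 391 CPM, from the class with fewest monocyte markers to the one with most.

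**Figure D4:**
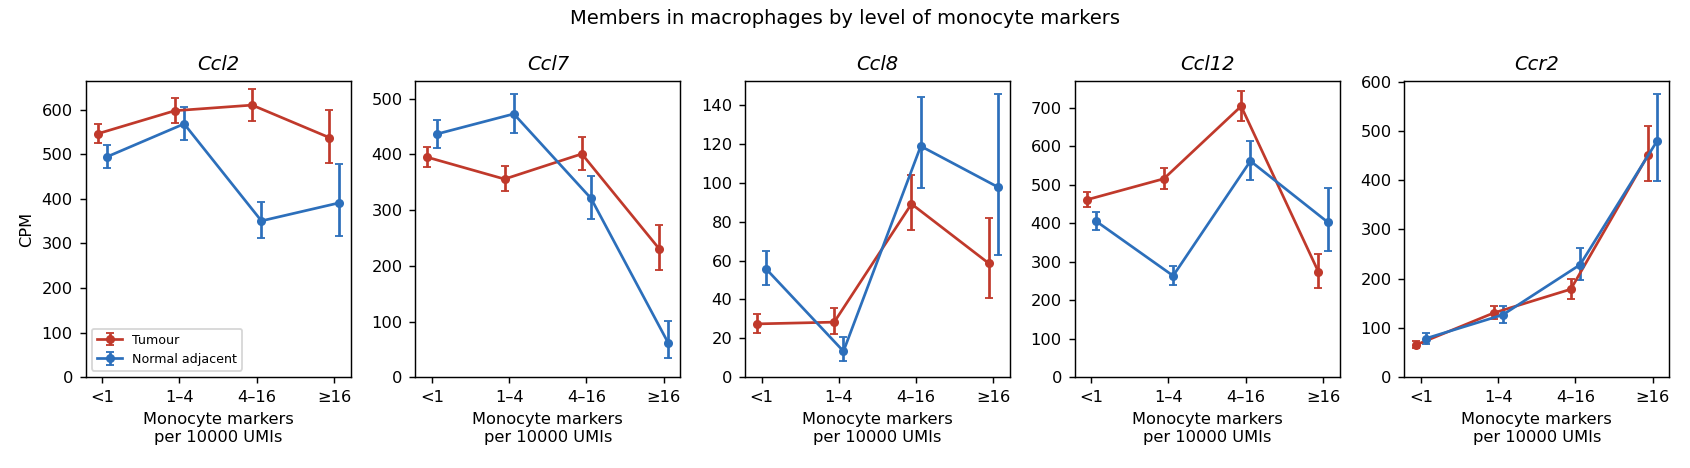
Level of each gene in CPM in macrophages grouped by monocyte marker UMIs per 10000, tumour in red and normal adjacent in blue, with exact 95% Poisson intervals. Ccr2 reaches 451 and 480 CPM in the highest class, where Ccl7 is at 231 and 61.1 CPM.

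The macrophage marker Mrc1, a mannose receptor of tissue macrophages, split the ligands further. Among macrophages of at least 5000 UMIs, 216 tumour and 124 normal adjacent cells had a UMI of Mrc1 and 355 and 201 had none, at median depths between 11613 and 13056 UMIs. Ccr2 stood at 179 CPM in tumour and 193 CPM in normal adjacent macrophages with Mrc1, against 45.3 and 53.3 CPM in those without. Ccl2 stood at 683 and 769 CPM with Mrc1 and at 483 and 311 CPM without. Ccl7 stood at 501 and 800 CPM with Mrc1 and at 284 and 160 CPM without. Ccl12 alone had the opposite order in the 2 libraries, with 390 CPM in tumour and 556 CPM in normal adjacent macrophages with Mrc1, and 604 and 279 CPM in those without. This split was chosen after the values were seen.

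Between the libraries, the macrophage gate showed no member past a ratio of 1.5 in either direction under the reported settings. Of the 11144 genes with at least 20 UMIs there, 5.56% had a ratio of at least 1.5 and 4.47% a ratio of at most 1/1.5. Ccl12 was higher in tumour macrophages, with a ratio of 1.35 (1.28 to 1.42) that stayed between 1.34 and 1.80 in all 9 alternative settings. Ccl2 had a ratio of 1.17 (1.11 to 1.22), which dropped to 0.966 with doubled marker levels. Ccl7 was lower at 0.897 (0.851 to 0.946), a direction that turned in 4 of 9 settings. Ccl8 was lower at 0.741 (0.633 to 0.869), and ran from 0.483 with marker levels divided by 2, past the fold, through 0.497 with thinning to 1.00 with mixed cells kept in the gate. Ccr2 had a ratio of 0.908, with an interval of 0.820 to 1.01. Over all cells at the macrophage marker level, gated or mixed, Ccl12 had 404 CPM in tumour and 255 CPM in normal adjacent tissue, a ratio of 1.58 (1.55 to 1.62). The ratios of Ccl2, Ccl7, Ccl8 and Ccr2 in those cells lay between 0.968 and 1.13.

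The ratios of Ccl2, Ccl7 and Ccl12 took opposite directions in macrophages with and without Mrc1. In macrophages with a UMI of Mrc1 they were 0.889 (0.835 to 0.946) for Ccl2, 0.626 (0.586 to 0.669) for Ccl7 and 0.702 (0.650 to 0.759) for Ccl12. In those without one they were 1.55 (1.43 to 1.68), 1.77 (1.59 to 1.98) and 2.17 (2.0 to 2.35). Ccr2 had ratios of 0.925 and 0.850 in the same classes. The difference between the classes was not tested.

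The monocyte gate showed higher ligand levels in tumour and no such difference in Ccr2. Of its 4 members with at least 20 UMIs, 3 had a ratio of at least 1.5, a fold that 9.81% of the 7705 genes measured there reached. None had a ratio of at most 1/1.5, against 7.66% of genes. Ccl2 had a ratio of 1.64 (1.31 to 2.08) and stayed between 1.33 and 2.22 in all 9 settings. Ccl7 had a ratio of 3.40 (1.67 to 7.61) from 41 and 10 UMIs, and 0.767 with cells thinned to 1000 UMIs. Ccl12 had a ratio of 2.19 (1.06 to 4.85) and came under 1 in 2 of 9 settings. Ccr2 had a ratio of 0.909 (0.808 to 1.02). The summed macrophage markers of this gate were at 700 CPM in tumour and 665 CPM in normal adjacent tissue, and the neutrophil markers at 249 and 280 CPM. The C1q genes alone moved with the ligands, at 319 CPM in tumour and 202 CPM in normal adjacent monocytes. Per 1000 C1q UMIs, Ccl2 stood at 460 (402 to 524) in tumour and 441 (364 to 531) in normal adjacent monocytes, with overlapping intervals. The part of macrophage RNA in the monocyte ratios was not tested.

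In fibroblasts Ccl8 was the only one of the 3 members with at least 20 UMIs to pass a ratio of 1.5, at 2.08 (1.11 to 4.15), and 8.6% of the 9078 genes measured there did so. None had a ratio of at most 1/1.5, against 8.81% of genes. Ccl2 had a ratio of 1.29 (1.17 to 1.42), which became 0.972 with mixed cells kept. Ccl7 had a ratio of 0.955 (0.845 to 1.08). In fibroblasts 50% of the Ccl2 UMIs lay in 9 of 217 tumour cells and 6 of 111 normal adjacent cells. The summed neutrophil markers of this gate were at 151 CPM in tumour and 92.8 CPM in normal adjacent tissue, and their part in the ratios was not tested.

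**Figure D5:**
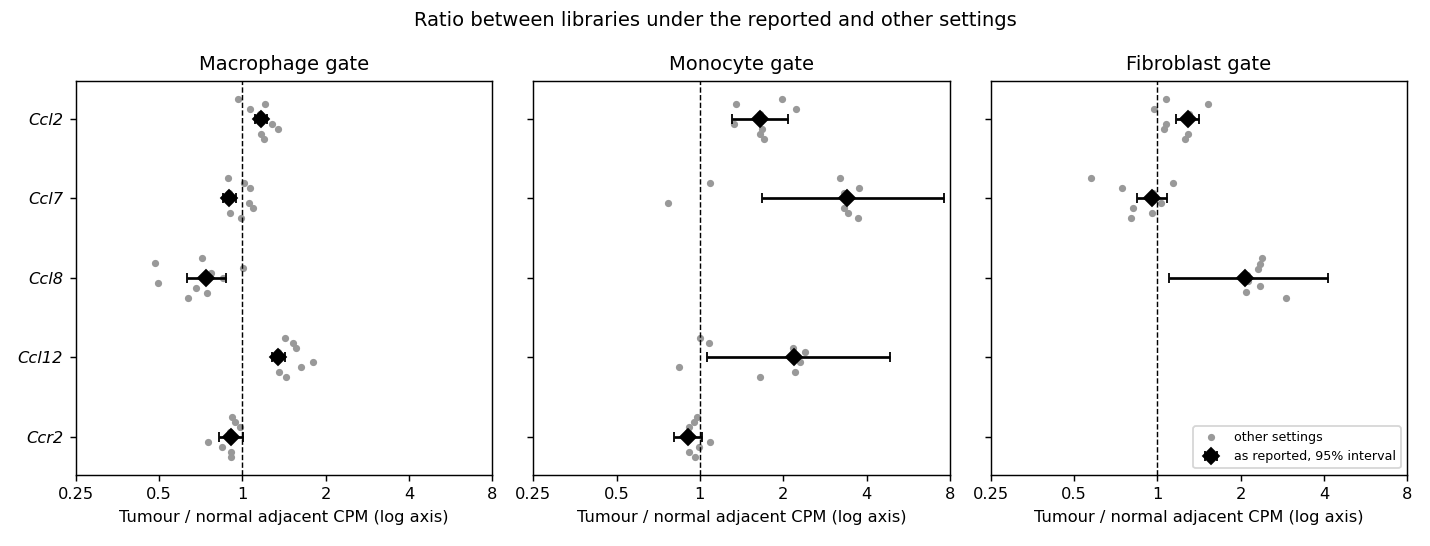
Ratio of tumour to normal adjacent CPM (log axis) of each gene in the macrophage, monocyte and fibroblast gates; diamonds give the reported ratio with its 95% interval and grey points the same ratio under other settings. Ccl12 in macrophages and Ccl2 in monocytes stay above 1 at every point, and genes under 20 UMIs are left blank.

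Other gates had larger ratios on fewer molecules. In type 2 dendritic cells Ccl2 had 154 CPM in tumour and 79.7 CPM in normal adjacent tissue, a ratio of 1.94 (1.56 to 2.42) that lay between 1.80 and 3.77 in all 9 settings. One tumour cell there held 58 Ccl2 UMIs, 18.8% of the gate. In neutrophils the Ccl8 ratio was 2.30 (1.56 to 3.49), from 123 and 33 UMIs. In gamma delta or type 17 T cells Ccl7 had 36.0 and 15.1 CPM, a ratio of 2.39 (1.64 to 3.53). In CD8 T cells Ccl12 went the other way, with 29.2 CPM in tumour and 55.2 CPM in normal adjacent tissue, a ratio of 0.529 (0.422 to 0.661). That direction was lost with marker levels divided by 2, at 1.01, and with thinning, at 1.10. There 1 normal adjacent cell held 77 of the 275 UMIs.

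For Ccr2 the lymphoid gates differed among themselves. NK cells had a ratio of 1.53 (1.15 to 2.03), CD4 T cells 1.86 (1.08 to 3.23) and CD8 T cells 1.32 (1.12 to 1.56). Gamma delta or type 17 T cells had a ratio of 1.14 (1.03 to 1.27). These 4 stayed above 1 in all 9 settings. T cells outside the named subsets had a ratio of 0.974 (0.829 to 1.14). B cells had a ratio of 3.16 (1.5 to 7.00) from 22 and 12 UMIs, which came to 0.456 with doubled levels and 0.377 with levels divided by 2. Regulatory T cells had too few cells for a ratio, at 111 CPM in tumour and 213 CPM in normal adjacent tissue. The intervals of the myeloid ratios held 1, at 0.909 (0.808 to 1.02) in monocytes, 1.05 (0.904 to 1.23) in type 2 dendritic cells and 0.908 (0.820 to 1.01) in macrophages. Neutrophils had a ratio of 1.19 (0.850 to 1.68) and migratory dendritic cells 1.94 (0.710 to 6.09). The macrophage ratio stayed below 1 in all 9 settings, between 0.753 and 0.977. Whether lymphoid and myeloid gates differ in this was not tested.

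The wider pathway was read from 6 lists of related genes. In macrophages, the other receptors of this chemokine group, the other attractants, the inducer receptors, the NF-kB and AP-1 regulators and the genes of Ccr2 signalling had 4, 7, 11, 11 and 14 measured genes, none past a ratio of 1.5 in either direction. Among all genes measured there, 5.56% had a ratio of at least 1.5 and 4.47% a ratio of at most 1/1.5. Of 7 measured inducers, Il6 and Il13 were higher in tumour and Ifng and Ifnb1 lower, all at low levels of at most 13.5 CPM. In tumour and normal adjacent macrophages Il6 had 59 and 14 UMIs and Il13 25 and 3. Ifng had 65 and 71 UMIs and Ifnb1 20 and 28. The list medians lay between -0.01 and 0.11 on the log2 scale, and the median of all genes was 0.02.

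In monocytes, 3 of 6 measured attractants outside the members were lower in tumour by a ratio of at most 1/1.5, and none had a ratio of at least 1.5, against 7.66% and 9.81% of all genes there. Ccl4 had 255 CPM in tumour and 616 CPM in normal adjacent tissue, and Ccl3 had 188 and 443 CPM. Csf1, a macrophage growth factor, had 5.24 and 28.4 CPM. The inducers Tnf, at 22.3 and 108 CPM, and Il1a, at 15.7 and 98.7 CPM, were also lower, 2 of 4 measured. Of the 4 receptors measured, Ccrl2 had 179 and 545 CPM and Ccr1 148 and 227 CPM. The median log2 ratio was -0.86 over the attractants and -1.15 over the inducers, against -0.01 over all genes and 0.90 over the members.

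In fibroblasts, 3 of 9 other attractants had a ratio of at least 1.5 and 2 a ratio of at most 1/1.5, against 8.6% and 8.81% of all genes there. Their median log2 ratio was 0.05, against -0.01 over all genes. Ccl4 had 93.2 CPM in tumour and 48.6 CPM in normal adjacent tissue, and Ccl3 had 41.6 and 14.1 CPM. Ccl5 had 52.9 and 93.7 CPM, and Il34, a ligand of the Csf1 receptor, 15.2 and 46.9 CPM. Of 10 measured inducer receptors, 1 had a ratio of at least 1.5 and 2 a ratio of at most 1/1.5, with a list median of 0.22. The interleukin 1 receptor Il1r1, which carries an inducing signal, had 70.0 CPM in tumour and 141 CPM in normal adjacent fibroblasts. Ifnar1 was also lower, at 19.2 and 29.2 CPM, and Il6ra was higher, at 20.5 and 10.6 CPM. Among NF-kB subunits, Nfkb1 had 140 and 91.1 CPM and Rel 59.5 and 33.6 CPM, 2 of 11 measured past the fold and both higher in tumour. The median of that list was 0.16.

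Genes most like each member over the 26 profiles gave further description. Ccl2 was closest to Lpl, a lipase gene (r = 0.927), Stard8 (r = 0.916), Ifnar2 (r = 0.908), Negr1 (r = 0.879) and Lrp1 (r = 0.867). Ccl7 was closest to Negr1 (r = 0.871), Speg (r = 0.871), Col14a1 (r = 0.866), Prkar1b (r = 0.864) and Itga9 (r = 0.859). Ccl8 was followed, after Tnfsf13b, by Ms4a7 and Pigz (r = 0.681 for both), Tgfbr1 (r = 0.680) and Hgf (r = 0.668). Ccr2 was closest to G430095P16Rik (r = 0.876), Mapk14 (r = 0.871), Myo1f (r = 0.861), Mapkapk3 (r = 0.854) and Bin2 (r = 0.850). Among the members, Ccr2 had r = 0.494 with Ccl12 and r = 0.019 with Ccl2. The profiles of 1 gate in both libraries are not independent, so no p is given.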

How the data were processed

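Single-cell RNA was measured in 1 tumour and 1 normal adjacent library. The authors deposited 1 matrix per library of unnormalized UMI counts, genes by cell barcodes, and per the file headers Cell Ranger 4.0.0 made them. R 4.0.3 and Seurat 3.2.2 are listed in the submitters' processing notes, and their output was not used here. Those notes list GRCh38, a human build, while the genes are mouse; the mouse build used for alignment is not given in the sources used here.

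From the counts, cells with at least 200 genes and at most 20% mitochondrial UMIs were kept. A cell entered a gate when its summed markers reached a level per 10000 UMIs, between 16 and 64 by gate, with at least 3 UMIs. Cells that reached the levels of more than 1 lineage were kept apart as mixed. No doublet caller was run. Of 158 marker genes, 4 that other cells also hold were left out of the sums. Levels are summed UMIs per 1000000 UMIs of the gate (CPM), with exact Poisson intervals. Shares have exact Clopper-Pearson intervals, ratios exact conditional binomial ones, all at 95%. Ratios needed 50 cells per library and, in counts past a fold of 1.5, 20 UMIs. Log2 ratios of lists added 0.5 UMIs. Likeness used log2(CPM + 1) and genes of at least 200 UMIs. The genes named were the members, the 5 most like each, and list genes past the fold, up to 3 per list, largest CPM first, with a few more named beyond that rule after their values were seen. Promoters came from RefSeq by symbol, with entries printed for Ccl8 and Ccl12. The pipeline was tested on simulated counts. Tools were Python 3.11.15, NumPy 2.4.6, SciPy 1.17.1, pandas 2.3.3 and matplotlib 3.10.9. The members and lists were chosen with earlier results of these data known.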

Additional observations from a re-analysis of the deposited data

Results flagged for a closer look

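Some tumour over normal adjacent ratios lay on opposite sides of 1 in 2 groups of cells, both with at least 100 UMIs over both libraries and intervals clear of 1. None of these differences between groups was tested, and the part of mixed cells or free RNA in them was not tested.

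Ccl2 had a ratio of 1.94 in type 2 dendritic cells and 0.702 in T cells outside the named subsets. Ccl7 had a ratio of 2.39 in gamma delta or type 17 T cells and 0.897 in macrophages. Ccl8 had a ratio of 2.30 in neutrophils and 0.741 in macrophages. Ccl12 had a ratio of 1.46 in T cells outside the named subsets and 0.529 in CD8 T cells. The opposite directions did not hold in every setting. The ratio of Ccl2 in T cells outside the named subsets ran from 0.382 to 4.03 and that of Ccl12 in CD8 T cells from 0.529 to 1.10, each turning in 2 of 9 settings. Ccl7 in macrophages turned in 4 of 9, and Ccl8 in macrophages came to 1.00 in 1.

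In macrophages of at least 5000 UMIs, split by Mrc1 after the values were seen, Ccl2 had a ratio of 0.889 with Mrc1 and 1.55 without. Ccl7 had ratios of 0.626 and 1.77, and Ccl12 ratios of 0.702 and 2.17, in the same order.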

How the results depend on the processing

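No paired analysis was possible because each tissue has 1 library. Of 572 alternative values of 65 results, 475 lay within the reported interval, 76 lay outside it and 21 reversed. Reversed means that the reported interval lay clear of 1 and the value fell on the other side of 1. Values that crossed 1 where the reported interval held 1 are not in that count. Ccr2 in neutrophils, for example, kept its side of 1 in only 4 of 9 settings, with 0 counted as reversed. All 65 stayed within it with at least 500 genes, at most 10% mitochondrial UMIs or non-mitochondrial CPM. The settings that moved results were doubled marker levels, marker levels divided by 2, mixed cells kept in their higher lineage, thinning, a mean over cells and leaving out the 1% of cells with most UMIs of the gene. The cause of each move was not tested.

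Doubled levels gave ratios in macrophages of 0.966 for Ccl2 and 1.42 for Ccl12, in monocytes of 0.999 for Ccl12, in CD8 T cells of 0.781 for Ccl7, in other T cells of 1.21 for Ccl2, in B cells of 0.456 for Ccr2 and in fibroblasts of 1.07 for Ccl2. Levels divided by 2 gave in macrophages 1.02 for Ccl7, 0.483 for Ccl8 and 1.52 for Ccl12, in CD8 T cells 1.01 for Ccl12, in B cells 0.377 for Ccr2, in fibroblasts 1.52 for Ccl2 and in epithelial cells 2.29 for Ccr2. Mixed cells kept gave in macrophages 1.07 for Ccl2, 1.07 for Ccl7, 1.00 for Ccl8 and 1.56 for Ccl12, in other T cells 4.03 for Ccl2, in fibroblasts 0.972 for Ccl2 and in epithelial cells 1.02 for Ccr2. Thinning gave in macrophages 1.28 for Ccl2, 1.06 for Ccl7, 0.497 for Ccl8, 1.80 for Ccl12 and 0.753 for Ccr2, in monocytes 0.767 for Ccl7 and 1.09 for Ccr2, in gamma delta T cells 1.40 for Ccr2, in CD8 T cells 1.10 for Ccl12, in fibroblasts 1.08 and in epithelial cells 1.34 for Ccl2. A mean over cells gave in macrophages 1.34 for Ccl2, 1.10 for Ccl7 and 1.63 for Ccl12, in monocytes 0.842 for Ccl12 and in fibroblasts 1.06 for Ccl2. Without the top 1% of cells, macrophages had 0.986 for Ccl7 and 1.44 for Ccl12, and epithelial cells 1.04 for Ccr2.

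The macrophage share of gated Ccl2 was 69.0%, 56.2% and 72.9% in tumour and 62.5%, 54.6% and 74.6% in normal adjacent tissue with levels doubled, divided by 2 and mixed cells kept. For Ccl7 it was 72.6%, 57.8% and 75.2% in tumour, and 61.8% with levels divided by 2 and 77.4% with mixed cells kept in normal adjacent tissue. For Ccl8 it was 56.5%, 30.3% and 60.6% in tumour and 69.0% with mixed cells kept in normal adjacent tissue. For Ccl12 it was 87.5% and 76.0% in tumour with levels doubled and divided by 2, and 71.4% and 82.9% in normal adjacent tissue with levels divided by 2 and mixed cells kept. At 50 UMIs or more, 299 macrophage, 345 monocyte and 315 fibroblast genes were past the fold upward and 230, 220 and 308 downward.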

Other observations

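Other receptors of the monocyte attractants lay in other cells than Ccr2. Ccr1, which binds the Ccl7 protein among others, stood at 1473 CPM in tumour and 1520 CPM in normal adjacent neutrophils, where Ccr2 stood at 35.3 and 29.7 CPM. In monocytes Ccr1 stood at 148 and 227 CPM and Ccr2 at 397 and 437 CPM.

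Cells with no gate held 135 CPM of Ccr2 in tumour and 116 CPM in normal adjacent tissue. Of 27 tumour regulatory T cells, 1 held 52 of the 67 Ccl12 UMIs of the gate and 1 held 37 of its 43 Ccl7 UMIs.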
